A study of Macaca mulatta with 52 samples.

Results

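Glycolysis enzyme isoforms are proteins that catalyse the same step of glycolysis but are encoded by different genes. The 10 genes described here were chosen by symbol from the deposited count table: hexokinases HK1 and HK2, phosphofructokinases PFKL, PFKM and PFKP, the phosphofructokinase regulators PFKFB3 and PFKFB4, pyruvate kinase PKM, and lactate dehydrogenases LDHA and LDHB. Of these, 9 had a named identifier among the 26309 identifiers of the table, and PKM had none and therefore has no value. PFKFB3 did not pass the filter on low counts in either kit, so 8 genes were tested in each. The identifiers were ENSMMUG00000015302 (HK1), ENSMMUG00000011845 (HK2), ENSMMUG00000004173 (PFKL), ENSMMUG00000002045 (PFKM), ENSMMUG00000004935 (PFKP), ENSMMUG00000010596 (PFKFB3), ENSMMUG00000000591 (PFKFB4), ENSMMUG00000031024 (LDHA) and ENSMMUG00000002679 (LDHB).

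Hexokinases trap glucose in the cell as glucose phosphate, and phosphofructokinase then carries out the committed and most regulated step of the pathway. The PFKFB enzymes make and break down the sugar bisphosphate that activates phosphofructokinase, and lactate dehydrogenase interconverts pyruvate and lactate at the end of the pathway. Mammalian embryos are known to rely on pyruvate and lactate during the first cleavages and to take up more glucose as they approach the blastocyst, and each of these enzymes is encoded by several genes that differ in tissue range and regulation.

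The libraries came from single rhesus monkey (Macaca mulatta) embryos, made by in vitro fertilisation of in vivo matured oocytes from females given FSH and hCG. Embryos were cultured with or without relaxin, a peptide hormone, and which embryo received it is not stated in the labels, so every group may mix both cultures. Cumulus cells, the follicle cells around the oocyte, had been removed by pipetting. The SoLo kit, a low-input method with depletion of unwanted sequences, gave 4 8-cell embryos, 3 morulas and 6 expanded blastocysts. The SPIA kit, a linear amplification of cDNA, gave 9 8-cell embryos, 11 morulas, 14 expanded blastocysts and 2 blastocysts labelled as delayed. The kits share embryos, 11 of them by title, so SoLo is a second measurement of part of the SPIA embryos and not an independent set. The 8-cell stage is where the embryo's own genome takes over transcription, the morula is a compacted ball of cells, and the blastocyst holds an outer trophectoderm and an inner cell mass.

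Totals ranged from 5.70 to 10.6 M (mega) counts in SoLo libraries and from 0.601 to 21 M in SPIA libraries. Abundant identifiers without a name, 13 of the 20 with most counts, took 12.5 to 39.8% of the counts in SoLo and 2.85 to 70.3% in SPIA. In SPIA their median share was 25.9% at the 8-cell stage, 53.3% in morulas and 56.6% in expanded blastocysts. The 4 markers of the 8-cell embryo summed to 197 to 584 counts per M (CPM) in 8-cell SPIA libraries, and the 4 named trophectoderm markers to 48.0 to 1110.0 CPM in expanded blastocysts, against 5.63 to 392 CPM in morulas, so the stage labels matched their markers in most libraries. Some SPIA libraries stood apart. The 8-cell library 020816_09 had almost no counts of HK1, HK2, LDHA or LDHB, and the expanded blastocyst library 111715_05 had only 0.601 M counts. The morula library 022916_02 kept 8-cell markers, with ZSCAN4 at 171 and LEUTX at 307 CPM, and a summed level of the 4 markers of 582 CPM. In 4 other SPIA morulas, 022416_03, 020816_04, 022916_03 and 022416_02, that sum was 70.7, 68.1, 54.9 and 36.9 CPM, mostly from ZSCAN4, and in the remaining 6 it was 1.45 to 11.7 CPM. Markers of cumulus and granulosa cells, 16 of 22 with a named identifier, moved with stage: their summed level was 188 to 2576 CPM in 8-cell SoLo libraries, against 51.4 to 166 CPM in morulas and 124 to 196 CPM in expanded blastocysts. In SPIA that sum was 19.0 to 1741 CPM at the 8-cell stage, with a median of 413, and 14.5 to 918 CPM in morulas. It was 13.2 to 88.5 CPM in SPIA expanded blastocysts, and LUM was at 0 in all 3 of these SPIA stages. The 3 8-cell embryos referred to below as those with cumulus transcripts are 020816_06, 020816_07 and 112815_02. The other 8-cell embryos were not all free of these markers. The lowest 8-cell SoLo sum lay above every SoLo morula, and the 8-cell SPIA median lay above every SPIA expanded blastocyst. Leaving the 3 embryos out therefore does not remove all transcripts of this list. Single markers differed from the sum. The cumulus markers VCAN and INHA were at 3.06 and 0 CPM in 020816_08, the SoLo 8-cell embryo that remains. VCAN was 1.40 to 5.81 CPM in SoLo expanded blastocysts. Among the remaining SPIA 8-cell embryos, VCAN reached 215 CPM in 011516_02. Whether the rest of the sum came from cumulus cells or from the embryos was not tested.

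CPM are counts per M scaled by TMM within a kit, so each value is a share of a library and not an amount per embryo or per cell. Fewer cells of a type and less RNA per cell cannot be told apart in such bulk samples. Tests are edgeR quasi-likelihood tests with Benjamini-Hochberg adjustment over all genes tested, a gene is called changed at an adjusted p under 0.05, and fold changes carry their standard error. The morula contrast and both 8-cell contrasts share libraries, so their results are not independent of each other.

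From the 8-cell stage to the morula, PFKL, HK2 and LDHB rose in both kits and HK1 rose in SoLo. In SoLo 4 of 8 tested isoform genes were called, all higher in morulas, while 16.7% of all tested genes were called, 9.78% higher and 6.92% lower. In SPIA 3 of 8 were called, all higher, while 19.4% of all tested genes were called, 9.06% higher and 10.3% lower. The median log2 fold change of the 8 genes was 0.97 in SoLo and 0.98 in SPIA, against -0.064 and -0.14 over all tested genes of the same kits. No isoform gene was called lower in either kit. Without the SPIA libraries 020816_09, 022916_02 and 111715_05, left out after seeing the data, PFKL (6.82 ± 0.97), HK2 (1.47 ± 0.23) and LDHB (1.80 ± 0.34) were again the calls. Between morula and expanded blastocyst only PFKFB4 was called, and only in SPIA, where 14.7% of all tested genes were called, 4.71% higher and 9.95% lower. The median log2 fold change of the 8 genes in that contrast was 0.31 in SoLo and 0.22 in SPIA, against 0.052 and -0.29 over all tested genes. In SoLo edgeR called 0 isoform genes there, with 1.14% of all tested genes called, 0.113% higher and 1.03% lower. PFKL and PFKFB4 had an unadjusted p under 0.05 in that contrast, and DESeq2 called both.

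Over the whole interval, expanded blastocyst against 8-cell, 5 of 8 genes were called in SoLo and 4 of 8 in SPIA, all higher in blastocysts. PFKL, PFKFB4, HK2 and LDHB made up the SPIA calls, and HK1 joined them in SoLo. The background was 38.4% of tested genes called in SoLo, 18.6% higher and 19.8% lower, and 36.6% called in SPIA, 12.9% higher and 23.7% lower. The median log2 fold change of the 8 genes was 1.52 in SoLo and 0.94 in SPIA, against -0.045 and -0.43 over all tested genes. PFKM, PFKP and LDHA were called in none of the stage contrasts of either kit. Delayed against expanded blastocysts gave 0 calls among 15578 genes by edgeR, with 196 genes at an unadjusted p under 0.05 and 22 called by DESeq2, and no isoform gene was called there. The delayed group holds 2 embryos, both of title code 112515.

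**Figure D1:**
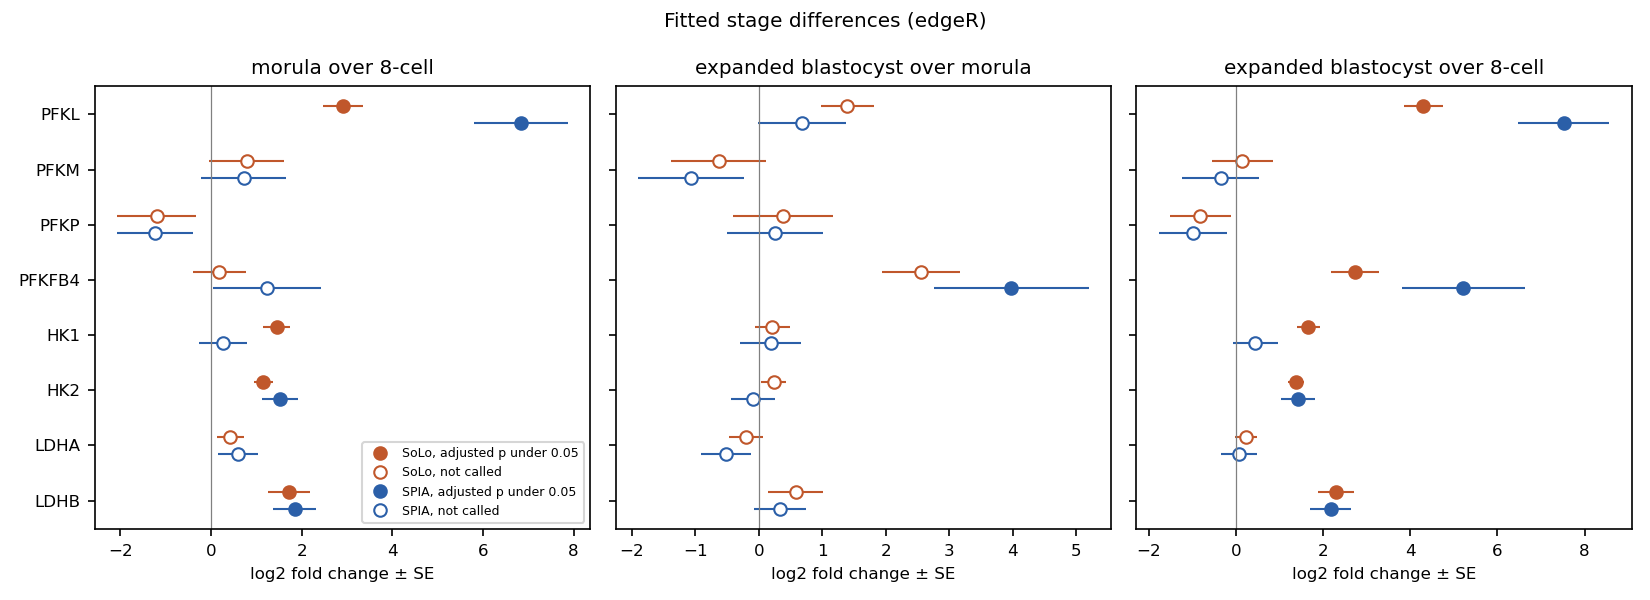
Fitted log2 fold changes with standard errors (horizontal axes) for the 8 tested isoform genes (rows) in 3 stage contrasts, SoLo in orange and SPIA in blue, filled where the edgeR adjusted p was under 0.05. PFKL lies farthest to the right in the 2 contrasts against 8-cell embryos, and PFKM, PFKP and LDHA have open points in every panel.

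HK2, the hexokinase induced in fast-growing and insulin-responsive tissues, rose once, before the morula. In SoLo it had 644, 800.2 and 858 CPM in the 3 morulas, against 288, 272, 319 and 505 CPM in the 4 8-cell embryos. All 3 morulas lay above all 4 8-cell embryos, and the fold change was 1.15 ± 0.21 (log2, edgeR adjusted p = 0.001387). In SPIA the level ranged from 153 to 1855 CPM in 11 morulas, with a median of 712, against 1.64 to 452 CPM in 9 8-cell embryos, with a median of 345. There 10 of 11 morulas exceeded every 8-cell embryo, and the exception was 022916_02, the morula that kept 8-cell markers. The SPIA fold change was 1.52 ± 0.40 (edgeR adjusted p = 0.007157).

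After the morula HK2 did not change beyond the spread. Expanded blastocysts averaged 903 ± 77.5 CPM in SoLo (SD, n = 6), against 767 ± 111 CPM in morulas (n = 3), and 894 ± 263 CPM in SPIA (n = 14), against 952 ± 486 CPM in morulas (n = 11). The order of the stage means was 8-cell, morula, expanded blastocyst in SoLo, and in SPIA morulas and expanded blastocysts changed places within their spread. Against 8-cell embryos, HK2 in expanded blastocysts was higher by 1.39 ± 0.19 in SoLo and 1.43 ± 0.39 in SPIA (log2), and 6 of 6 and 13 of 14 blastocysts exceeded every 8-cell embryo. In SPIA the morula call was lost when those groups were fitted alone (adjusted p = 0.0652), among embryos with no SoLo library (adjusted p = 0.145), within title code 020816 (1.57, adjusted p = 0.553) and in the voom fit (adjusted p = 0.0516), each with a similar fold change.

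HK1, the hexokinase expressed in most tissues, rose in SoLo only by the test, and the difference between kits in this change did not pass the test given further on. Its SoLo level was 79.2, 200.1 and 207 CPM in morulas, against 45.8, 56.8, 63.6 and 70.7 CPM in 8-cell embryos. The groups did not overlap, although the morula 021016_02 lay close to the 8-cell embryos, and the fold change was 1.45 ± 0.30 (log2, edgeR adjusted p = 0.003258). Without the 3 8-cell embryos that carried cumulus cell transcripts it was 1.35 with an adjusted p of 0.081, a fit that leaves 1 8-cell library whose spread is taken from the other groups.

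Expanded blastocysts held HK1 at 188 ± 33.2 CPM in SoLo (SD, n = 6). In SPIA the 8-cell embryos alone spanned 0.182 to 154 CPM with a median of 35.3, morulas 11.5 to 106 with a median of 61.4, and expanded blastocysts 16.0 to 147 with a median of 66.1. The SPIA stages overlapped throughout. The fold change against 8-cell embryos was 0.26 in morulas (edgeR adjusted p = 0.778) and 0.447 in expanded blastocysts (edgeR adjusted p = 0.526). A voom fit with embryos blocked by title code called the second of these in SPIA (1.65, adjusted p = 0.0241). That fit also gave a larger share of higher calls over all genes, as given further on. The balance between the hexokinases did not pass a test at any stage. The mean log2 ratio of HK1 to HK2 counts was -2.52 ± 0.27, -2.36 ± 0.58 and -2.28 ± 0.31 in SoLo 8-cell embryos, morulas and expanded blastocysts. None of the 7 permutation tests of that ratio over both kits passed an adjusted p of 0.05.

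**Figure D2:**
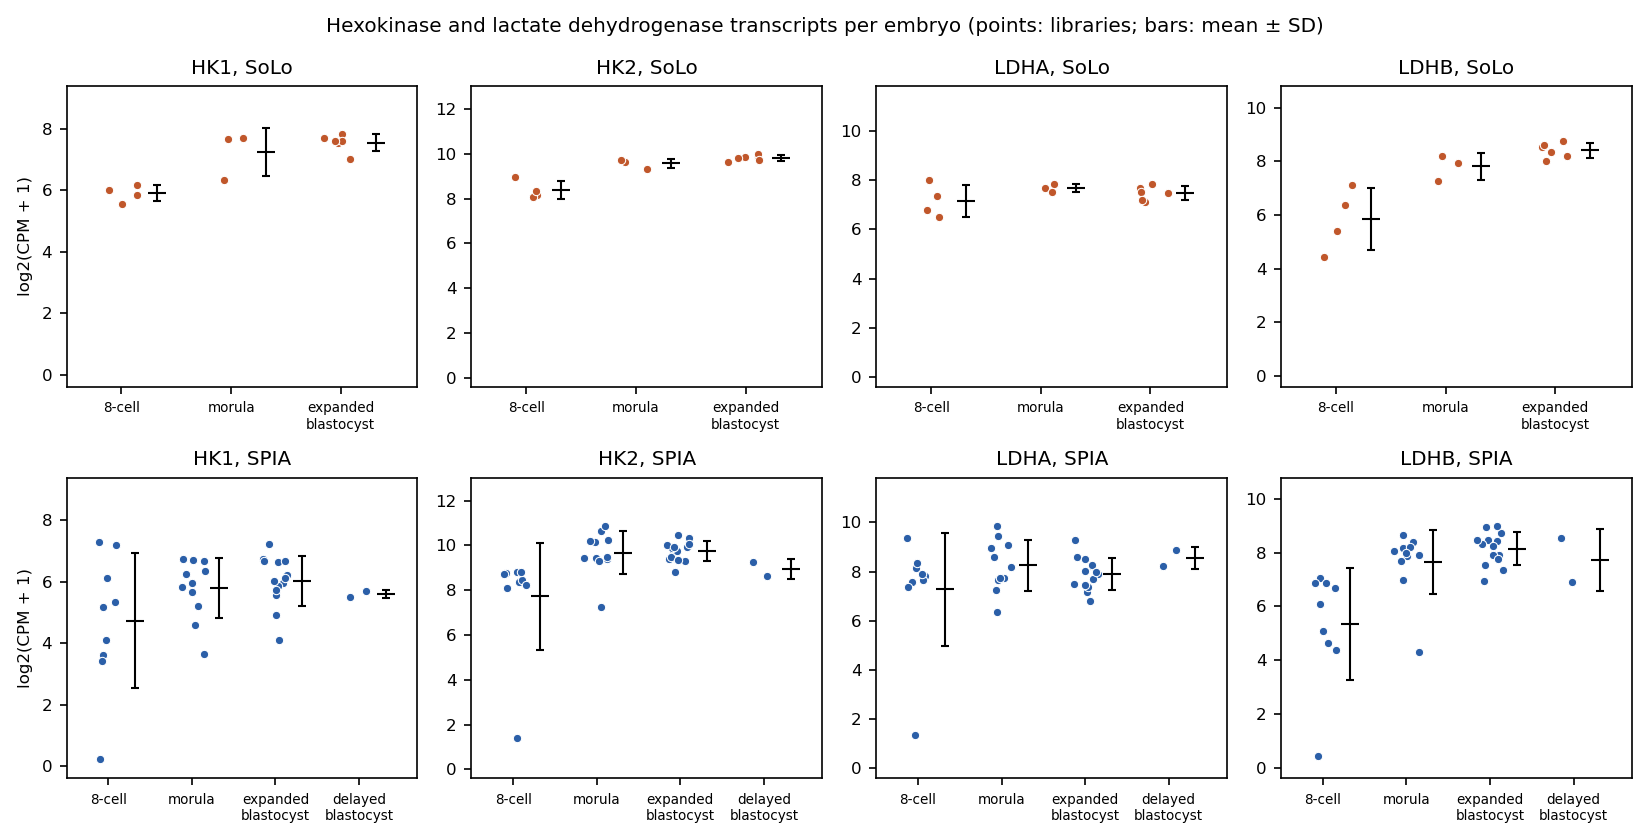
Level as log2(CPM + 1) (vertical axes) of HK1, HK2, LDHA and LDHB by stage, SoLo in the upper row and SPIA in the lower row, 1 point per library with bars for mean ± SD. HK2 and LDHB sit higher in morulas and blastocysts than in 8-cell embryos in both rows, LDHA shows overlapping stages, and the 8-cell SPIA library 020816_09 is the low point of all 4 genes.

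PFKL, the liver-type phosphofructokinase, was the isoform gene that differed most from the 8-cell stage in both kits. In SoLo it had 36.8, 28.3 and 86.5 CPM in morulas, against 3.92, 6.73, 3.28 and 13.0 CPM in 8-cell embryos. The groups did not overlap, and a further step followed in expanded blastocysts, which ranged from 107 to 176 CPM with a median of 124, all above the 3 morulas. In SPIA 8-cell embryos it was close to absent, with 3 of 9 libraries at 0, a median of 0.132 and a highest value of 1.13 CPM, from 49 counts in all 9 libraries together.

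SPIA morulas differed widely among themselves. Their PFKL ran from 0 to 156 CPM with a median of 23.0, and the coefficient of variation was 137%, against 36.4% among expanded blastocysts. Among 8-cell embryos it was 127%, at levels of at most 1.13 CPM. Of the 11 morulas, 9 lay above every 8-cell embryo, and the other two were 022916_02 at 0.0823 CPM and 022916_03 at 0. The 8-cell markers were highest in 022916_02 but not in 022916_03, where they were lower than in 022416_03 and 020816_04, whose PFKL was 3.75 and 26.0 CPM. Another embryo of the same title code, 022916_01, had 125 CPM of PFKL. The lowest of the other morulas were 022416_02 at 2.66 CPM and 022416_03 at 3.75 CPM, also of 1 title code. All 14 expanded blastocysts fell between 34.4 and 106 CPM, above every 8-cell embryo, and the 2 delayed blastocysts had 99.4 and 46.2 CPM, inside that range.

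The log2 fold change of morulas against 8-cell embryos was 2.91 ± 0.44 in SoLo (edgeR adjusted p = 0.0003375) and 6.84 ± 1.03 in SPIA (1.751e-05). Expanded blastocysts against 8-cell embryos gave 4.30 ± 0.44 in SoLo and 7.52 ± 1.06 in SPIA (edgeR adjusted p = 7.504e-07 in SPIA). Without morula 022916_01 the SoLo morula value was 2.28, and without 8-cell embryo 020816_07 the SPIA values were 7.46 in morulas and 8.13 in expanded blastocysts, all still called. For expanded blastocysts against morulas it was 1.39 ± 0.42 in SoLo (adjusted p = 0.113) and 0.68 in SPIA, neither called. In SoLo that step was called by DESeq2 (adjusted p = 0.0288) and without morula 022916_01 (2.03, adjusted p = 0.00823), and in SPIA by voom (3.56, adjusted p = 0.00267). The voom fit moved the median log2 fold change of all tested genes in that contrast to 0.41, against -0.29 with edgeR. Within title code 020816, the only code with both stages, morulas exceeded 8-cell embryos by a log2 fold change of 6.46 with an adjusted p of 0.212.

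PFKM, the muscle-type enzyme, and PFKP, the platelet-type enzyme, showed no called change. PFKM averaged 7.76 ± 8.14, 13.4 ± 11.5 and 8.59 ± 2.50 CPM in SoLo 8-cell embryos, morulas and expanded blastocysts (SD, n = 4, 3 and 6). The same stages averaged 5.34 ± 5.39, 8.80 ± 10.2 and 4.22 ± 3.002 CPM in SPIA (n = 9, 11 and 14). These stages do not differ beyond their spread, and the highest value, 35.2 CPM, came from morula 022416_03.

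PFKP averaged 37.3 ± 31.95, 16.2 ± 14.9 and 21.2 ± 19.2 CPM at the same stages in SoLo, and 33.3 ± 34.2, 14.2 ± 20.2 and 17.4 ± 24.3 CPM in SPIA. The 8-cell mean was the highest of the 3 in both kits, but the fold change in morulas against 8-cell embryos was -1.23 in SPIA with an adjusted p of 0.311, and every pair of stages overlapped. Single embryos reached high values at each stage, among them 8-cell embryo 020816_06 at 113 CPM, morula 020816_02 at 62.2 CPM and the shallow expanded blastocyst 111715_05 at 89.1 CPM, all in SPIA. In SoLo the highest 8-cell value of both PFKM and PFKP, 19.6 and 83.4 CPM, came from 112815_02, one of the 8-cell embryos with cumulus cell transcripts, and without those embryos the PFKP change in morulas had the opposite sign (0.74). The part of cumulus transcripts in this was not tested.

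**Figure D3:**
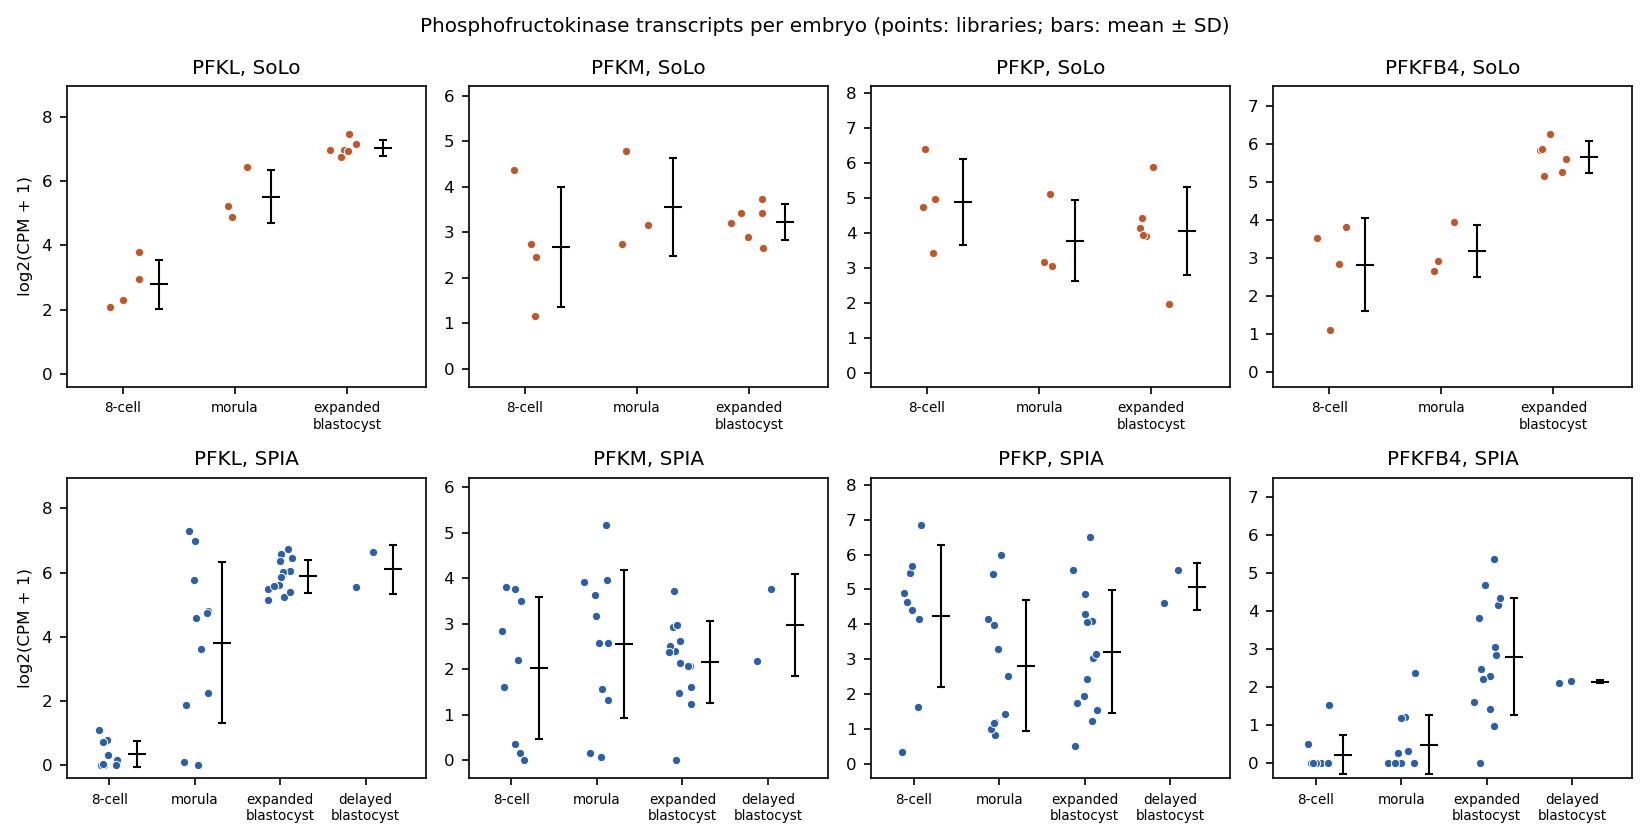
Level as log2(CPM + 1) (vertical axes) of PFKL, PFKM, PFKP and PFKFB4 by stage, SoLo in the upper row and SPIA in the lower row, 1 point per library with bars for mean ± SD. PFKL climbs from stage to stage with wide spread among SPIA morulas, PFKM and PFKP overlap throughout, and PFKFB4 is high in expanded blastocysts.

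With PFKL rising and PFKM and PFKP showing no called change, the composition of phosphofructokinase transcripts shifted. The ratio of 2 genes' counts within 1 library needs no scaling, and because gene lengths were not removed only its change between stages is read. The log2 ratio of PFKL to PFKP was 1.37, 1.83 and 2.32 in the 3 SoLo morulas, against -2.71, -2.68, -2.16 and -1.55 in the 4 8-cell embryos. That difference of 4.11 had the smallest p that an exact permutation test of 3 against 4 embryos can give (p = 0.02857, adjusted 0.0706 over 42 ratio tests). In SPIA the mean ratio was 0.56 ± 4.22 in morulas, against -6.54 ± 3.11 in 8-cell embryos, a difference of 7.10 (exact permutation p = 0.0009883, adjusted 0.006144). Expanded blastocysts differed from 8-cell embryos by 5.38 in SoLo and 9.50 in SPIA, with adjusted permutation p of 0.0154 and 3.426e-05. The size of these SPIA differences depends on the pseudocount, because 8-cell PFKL counts are near 0: with 5 in place of 0.5 the difference of expanded blastocysts was 7.64 for PFKL to PFKP. Leaving out 1 library moved the SPIA differences of PFKL to PFKP to 10.2 for expanded blastocysts (without 8-cell embryo 011516_02), and for morulas to as little as 6.41 (without morula 021016_04) and as much as 7.87 (without morula 022916_02, with near values without 022916_03 or 8-cell embryo 011516_02), all still passing. Between morula and expanded blastocyst in SPIA that ratio did not pass, and without morula 021016_04 it did (3.10, adjusted permutation p = 0.0409).

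The PFKL to PFKM ratio moved likewise: its difference between expanded blastocysts and 8-cell embryos was 3.77 in SoLo and 7.67 in SPIA, without overlap in either kit (adjusted exact permutation p = 0.0154 and 2.57e-05). With the larger pseudocount the SPIA value was 6.01. In SPIA it also passed for morulas against 8-cell embryos (4.66, adjusted exact permutation p = 0.006144) and for expanded blastocysts against morulas (3.01, adjusted permutation p = 0.01297). The PFKM to PFKP ratio passed in none of its 7 tests with all libraries. For expanded blastocysts against 8-cell embryos it passed without 8-cell embryo 011516_02 in SPIA (2.88, adjusted exact permutation p = 0.0141, against 1.84 with it) and without expanded blastocyst 111215_b in SoLo (1.96, adjusted exact permutation p = 0.0441, against 1.62 with it). The 4 8-cell SoLo embryos were close together in that ratio, at -2.48 ± 0.34, whereas the 3 morulas spread over -0.24 ± 2.17.

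**Figure D4:**
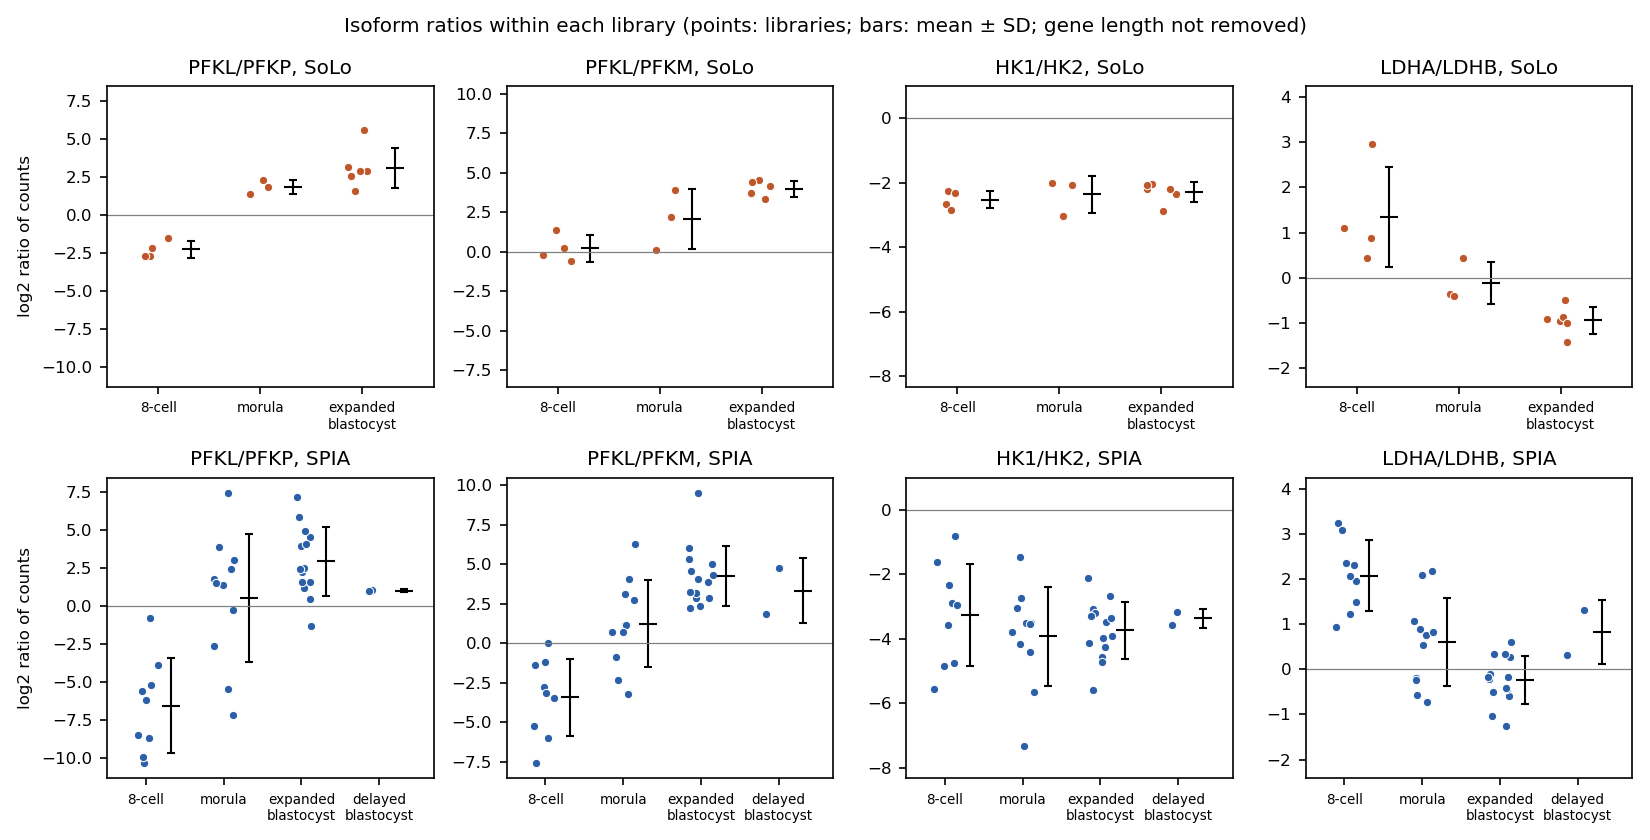
Log2 ratio of counts within each library (vertical axes) for PFKL/PFKP, PFKL/PFKM, HK1/HK2 and LDHA/LDHB by stage, SoLo in the upper row and SPIA in the lower row, 1 point per library with bars for mean ± SD. The ratios with PFKL on top go up from 8-cell embryos to expanded blastocysts, HK1/HK2 stays within its spread, and LDHA/LDHB goes down.

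PFKFB4, which makes and breaks down the activator of phosphofructokinase, was the late member of the group. In SoLo it was at 6.60, 5.28 and 14.4 CPM in morulas, against 6.21, 1.14, 10.5 and 13.1 CPM in 8-cell embryos, and these groups overlapped. Expanded blastocysts had 34.5 to 76.3 CPM with a median of 52.1, above every morula and every 8-cell embryo. The fold change of expanded blastocysts against 8-cell embryos was 2.74 ± 0.55 (log2, called by edgeR), and against morulas it was 2.55 ± 0.62 with an adjusted p of 0.0527.

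That second contrast passed with DESeq2 (adjusted p = 0.00111), with the 2 groups fitted alone (0.0405), without the filter on low counts (0.0316) and without morula 022916_01 (0.0118). In SPIA 7 of 9 8-cell embryos and 6 of 11 morulas were at 0, the highest values being 1.90 and 4.23 CPM. These zeros do not show absence. The 8-cell embryos 020816_06, 020816_07 and 020816_08 and morula 021016_03, all at 0 in SPIA, had 57, 12, 93 and 36 counts in SoLo. Among SPIA expanded blastocysts 13 of 14 had counts, up to 40.4 CPM with a median of 5.39. The blastocyst at 0 was 111715_05, the library with the fewest counts. The 2 delayed blastocysts had 3.33 and 3.50 CPM.

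The SPIA fold change of expanded blastocysts was 3.98 ± 1.22 against morulas (edgeR adjusted p = 0.02213) and 5.22 ± 1.41 against 8-cell embryos (0.003362). Single libraries moved both values, to 5.10 without morula 020816_02 and to 7.35 without 8-cell embryo 011516_03, still called. The change against morulas was lost among embryos with no SoLo library (3.17, adjusted p = 0.270) and without morulas 022916_02 and 022916_03, a pair left out after their PFKL values were seen (3.68, adjusted p = 0.0543). The highest SPIA values, 40.4, 24.7, 19.5, 16.9 and 13.3 CPM, came from embryos of codes 111215 and 111715. Trophectoderm markers also rose with the blastocyst, as given above, and their part in the PFKFB4 difference was not tested.

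PFKFB3, the other regulator searched for, was nearly undetected. It had counts in 2 of 13 SoLo libraries, 3 counts in 8-cell embryo 020816_08 and 2 counts in morula 022916_01, and in 1 of 36 SPIA libraries, 9 counts or 0.832 CPM in 8-cell embryo 112815_01. No expanded or delayed blastocyst had a count. At 3 counts per library, the limit that a count of 0 allows was 0.275 to 0.601 CPM in SoLo and 0.113 to 6.86 CPM in SPIA, for counting error alone. The ratio of PFKFB3 to PFKFB4 fell in 4 tests, and since PFKFB3 was near 0 throughout, these restate the PFKFB4 values. Without the filter on low counts edgeR called PFKFB3 lower in SPIA morulas and expanded blastocysts than in 8-cell embryos, on the counts of that 1 8-cell library.

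Lactate dehydrogenase changed through LDHB. LDHB, the subunit typical of heart and other oxidative tissues, had 296, 152 and 246 CPM in SoLo morulas, against 80.8, 41.6, 20.8 and 138 CPM in 8-cell embryos. The groups did not overlap and the fold change was 1.72 ± 0.45 (log2, edgeR adjusted p = 0.01888), not called when these groups were fitted alone (1.72, adjusted p = 0.0629) or without morula 021016_02 (1.504, adjusted p = 0.0715). In SPIA morulas ranged from 18.8 to 399.7 CPM with a median of 255, against 0.365 to 132 CPM with a median of 67.0 in 8-cell embryos. There 9 of 11 morulas exceeded every 8-cell embryo, with 022916_02 at 18.8 and 021016_03 at 124 CPM as exceptions, and the fold change was 1.84 ± 0.48 (adjusted p = 0.006485). Like HK2, it lost the call in SPIA, with a fold change at least as large, with groups fitted alone (1.89, adjusted p = 0.0602), among embryos with no SoLo library (1.87, adjusted p = 0.146) and within title code 020816 (2.71, adjusted p = 0.361).

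Expanded blastocysts averaged 345 ± 65.8 CPM in SoLo (SD, n = 6) and 307 ± 119.7 CPM in SPIA (n = 14), and LDHB was higher than in 8-cell embryos by 2.30 ± 0.42 and 2.18 ± 0.47 (log2). LDHA, the subunit typical of skeletal muscle and other glycolytic tissues, did not pass in any stage contrast of either kit. It had 231, 205 and 184 CPM in SoLo morulas, against 109, 89.5, 163 and 254 CPM in 8-cell embryos, where embryo 112815_02 alone lay above all morulas. Without that embryo the morula difference was called (0.78, adjusted p = 0.0453). In SPIA LDHA averaged 254 ± 176 CPM in 8-cell embryos, 381 ± 260.2 in morulas and 265 ± 132 in expanded blastocysts. The highest SPIA value, 924 CPM, was in morula 022916_03. Processed copies of LDHA exist in primate genomes, and how reads shared with them were counted is not given in the sources used here.

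The balance of the subunits therefore moved from stage to stage. In SoLo the log2 ratio of LDHA to LDHB counts was 1.35 ± 1.11 in 8-cell embryos, -0.11 ± 0.47 in morulas and -0.94 ± 0.30 in expanded blastocysts (SD, n = 4, 3 and 6). In SPIA it was 2.07 ± 0.78, 0.60 ± 0.98 and -0.24 ± 0.53 at the same stages (n = 9, 11 and 14). Expanded blastocysts and 8-cell embryos did not overlap in either kit, with differences of -2.29 in SoLo and -2.31 in SPIA (adjusted exact permutation p = 0.0154 and 2.57e-05).

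The step from 8-cell to morula was -1.46 in SoLo, where the highest morula, 0.43, was just under the lowest 8-cell embryo (exact permutation p = 0.05714, adjusted 0.114), and -1.47 in SPIA (exact permutation p = 0.002387, adjusted 0.01253). The step from morula to expanded blastocyst was -0.83 in SoLo and -0.84 in SPIA, each with an adjusted permutation p of 0.0313. In SoLo the second step was -0.56 without morula 021016_03 and -0.95 and -0.98 without either of the others, where 2 morulas against 6 blastocysts cannot pass the adjusted threshold. In SPIA it fell short without morula 022916_02 (-0.69, 0.0619) or 022916_03 (-0.68, 0.0627). Without the 3 8-cell embryos with cumulus transcripts, the SoLo differences of expanded blastocysts from the 1 remaining 8-cell embryo kept their sign (-3.90 for LDHA to LDHB, 4.66 for PFKL to PFKP and 2.61 for PFKL to PFKM) but could not pass (adjusted exact permutation p = 0.286). The 2 delayed blastocysts had ratios of 0.32 and 1.32, which the test did not separate from expanded blastocysts (difference 1.06, exact permutation p = 0.04167, adjusted 0.0921). In the whole family 16 of 42 ratio tests passed: 5 for LDHA to LDHB, 4 each for PFKL to PFKM and PFKFB3 to PFKFB4, and 3 for PFKL to PFKP.

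The kits gave different levels for the same genes, over 13 libraries of each kit from the same or group-matched embryos. The fit held stage and kit but not the embryo, so both libraries of an embryo were treated as separate. PFKFB4 was higher in SoLo by 2.17 ± 0.67, and HK2, LDHA and LDHB were lower in SoLo by log2 fold changes of -0.93 ± 0.13, -1.29 ± 0.17 and -0.86 ± 0.25. That is 4 of 8 called by edgeR, while 23.3% of all tested genes were called, 11.8% higher and 11.4% lower. The median log2 difference was -0.27 over the 8 genes and 0.11 over all tested genes. In the 11 embryos with both libraries, LDHA was lower in SoLo in 11 of 11, with means of 138 CPM in SoLo and 342 CPM in SPIA, and PFKFB4 was higher in SoLo in 10 of 11, with means of 19.3 and 6.59 CPM, here scaled over both kits together.

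The direction depended on scaling for some of these genes. With library totals in place of TMM, a choice made after seeing the data, the median of all genes moved to 0.78. PFKFB4 stayed higher in SoLo (2.81, adjusted p = 0.001675) and LDHA stayed lower (-0.62, 0.007252), whereas HK2 (-0.25, 0.152) and LDHB (-0.19, 0.574) were no longer called and PFKL was called higher (1.11, 0.01984). Without a call in either scaling, HK1, PFKM and PFKP had opposite signs. Whether a stage difference depends on the kit was tested as an interaction, also without the pairing of embryos. It gave 0 calls among 14873 genes by edgeR, with 1566 at an unadjusted p under 0.05 and 117 called by DESeq2. For PFKL and PFKFB4, whose fold changes looked larger in SPIA, the adjusted p of that test was 0.296 and 0.338.

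**Figure D5:**
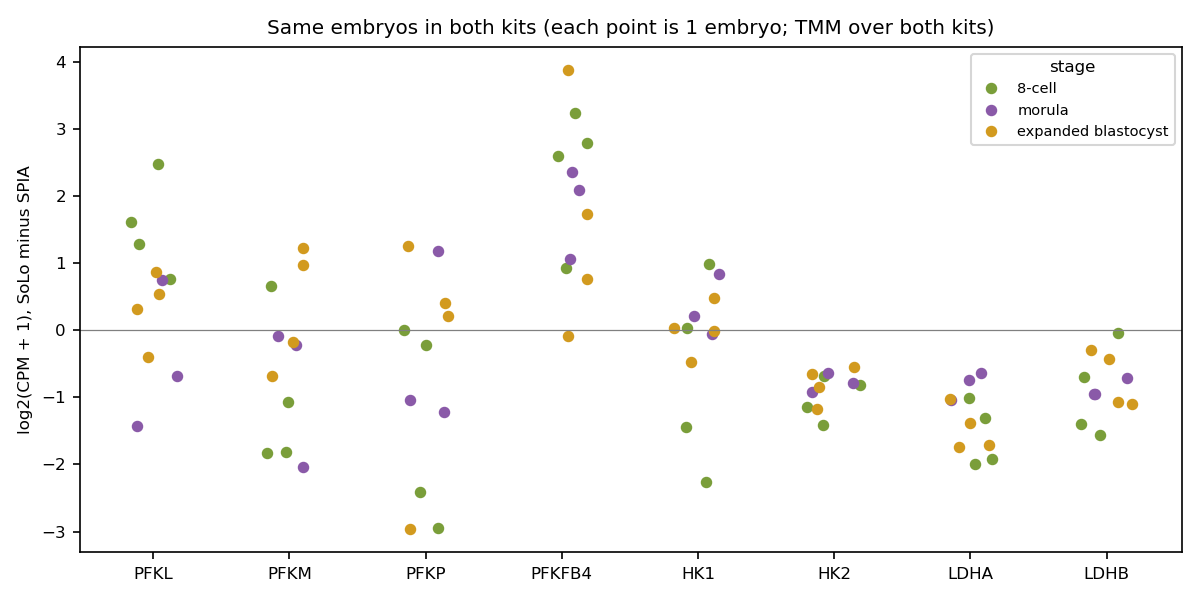
Difference between kits in log2(CPM + 1), SoLo minus SPIA (vertical axis), for each of the 8 tested genes (horizontal axis), 1 point per embryo sequenced with both kits and coloured by stage, with CPM scaled over both kits together. All 11 points of HK2, LDHA and LDHB lie under 0, and 10 of 11 points of PFKFB4 lie above it.

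Other genes of the pathway came from a list of 29, of which 25 had a named identifier, 18 were tested in SoLo and 19 in SPIA. From 8-cell to morula, 1 rose and 2 fell in SoLo and 1 rose and 4 fell in SPIA, against 16.7 and 19.4% of all tested genes called. Over the whole interval to the expanded blastocyst, 5 rose and 4 fell in SoLo and 1 rose and 6 fell in SPIA, that is 9 of 18 and 7 of 19, against a background of 38.4 and 36.6%. The SPIA share was near that background. The median log2 fold change of the list was -1.34 and -0.24, against -0.045 and -0.43 over all genes. Between morula and expanded blastocyst none of 18 was called in SoLo by edgeR, with 5 at an unadjusted p under 0.05 (GPI, GAPDH, BPGM, ENO2 and LDHAL6A), and in SPIA 1 rose and 3 fell, against 14.7% of all tested genes. No list member was called between delayed and expanded blastocysts by edgeR, where HKDC1 alone had an unadjusted p under 0.05.

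Those that rose against 8-cell embryos in SoLo included GAPDH, PGK1, GPI, PGAM1 and ALDOA. GAPDH, which oxidises glyceraldehyde phosphate, averaged 731 ± 191 CPM in SoLo morulas, against 302 ± 65.6 CPM in 8-cell embryos, a log2 difference of 1.28 ± 0.22, and 1165 ± 186 CPM in expanded blastocysts. PGK1, which forms the first ATP of the pathway, rose in expanded blastocysts against 8-cell embryos by 3.15 ± 0.69 in SoLo and 2.70 ± 0.71 in SPIA. GPI (1.35 ± 0.30), PGAM1 (1.23 ± 0.29) and ALDOA (0.52 ± 0.20), enzymes of the isomerase, mutase and aldolase steps, also rose over that interval in SoLo. In SPIA they were not called. GAPDH was not called higher in SPIA either, in morulas or in expanded blastocysts against 8-cell embryos. SPIA means of ALDOA went down, at 103 ± 79.6, 82.7 ± 28.1 and 70.2 ± 30.6 CPM in 8-cell embryos, morulas and expanded blastocysts (SD). Those of GPI went up, at 13.2 ± 11.5, 25.8 ± 27.1 and 33.1 ± 17.7 CPM. Processed copies of GAPDH in primate genomes make its counts uncertain, as for LDHA.

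Those that fell included BPGM, ENO2 and LDHAL6A. BPGM, which makes the bisphosphoglycerate of red blood cells, averaged 11.98 ± 5.81 CPM in SoLo expanded blastocysts, against 264 ± 117 CPM in 8-cell embryos, with log2 fold changes of -4.46 ± 0.43 there and -4.64 ± 0.75 in SPIA. ENO2, the neuronal enolase, averaged 0.254 CPM in SoLo expanded blastocysts, against 32.9 ± 12.4 CPM in 8-cell embryos, and in SPIA 0.329 CPM, against 23.9 ± 39.0 CPM. HK3, a hexokinase of blood cells, and PFKFB2, the heart form of the PFKFB family, fell in SPIA morulas with log2 fold changes of -3.67 ± 0.88 and -2.10 ± 0.69. PFKFB2 did not stay low: it averaged 27.4 ± 22.2, 6.42 ± 6.68 and 18.0 ± 7.32 CPM in SPIA 8-cell embryos, morulas and expanded blastocysts. In SoLo its means did not fall, at 9.32 ± 4.66, 13.81 ± 5.95 and 13.75 ± 5.42 CPM. LDHAL6A, a lactate dehydrogenase-like gene, fell over the whole interval with log2 fold changes of -3.37 ± 0.63 in SoLo and -4.28 ± 1.02 in SPIA. HKDC1, a hexokinase-like gene, averaged 0.0966 CPM in SoLo expanded blastocysts, against 9.85 ± 5.32 CPM in 8-cell embryos, and ADPGK, a sugar kinase that uses ADP, fell over the same interval in SPIA (-2.65 ± 0.73). In SPIA, PKLR was called lower in morulas than in 8-cell embryos and higher in expanded blastocysts than in morulas, and ENO3 was called higher in morulas than in 8-cell embryos, but each averaged under 2 CPM in every stage with at least 1 stage at or near 0, so no fold is given. The fall of the genes that stayed lower up to the expanded blastocyst ran alongside that of the cumulus cell markers, whose part was not tested.

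Of 16 regulators listed for these enzymes, 13 had a named identifier. From 8-cell to morula, 1 rose and 2 fell in SoLo and in SPIA alike, of 13 and 12 tested, against 16.7 and 19.4% of all tested genes called. Over the whole interval 4 rose and 4 fell in SoLo, 8 of 13 against 38.4%, and 1 rose and 3 fell in SPIA, 4 of 12 against 36.6%, again near the background. Between morula and expanded blastocyst 0 of 13 were called in SoLo by edgeR, with HIF1A and TFCP2L1 at an unadjusted p under 0.05, and in SPIA 3 rose, against 14.7%. EPAS1, a hypoxia-inducible factor subunit, fell in morulas (log2 fold change -3.10 ± 0.64 in SoLo and -2.51 ± 0.70 in SPIA), whereas HIF1A, the other such subunit, rose by 1.16 ± 0.33 in SoLo expanded blastocysts against 8-cell embryos and by 1.18 ± 0.39 in SPIA expanded blastocysts against morulas. TFCP2L1, a transcription factor of pluripotent and epithelial cells, rose in expanded blastocysts against 8-cell embryos by 3.40 ± 0.66 in SoLo and 5.43 ± 1.09 in SPIA. ESRRB, an orphan nuclear receptor of pluripotent cells, averaged 96.4 ± 14.5 CPM in SoLo morulas, against 7.00 ± 5.15 CPM in 8-cell embryos, a log2 difference of 3.78 ± 0.53. Its SPIA means were 12.8 ± 14.1, 22.3 ± 14.2 and 35.8 ± 17.6 CPM in 8-cell embryos, morulas and expanded blastocysts, with overlapping ranges. MYC, which activates many glycolysis genes, fell in expanded blastocysts against 8-cell embryos (-1.09 ± 0.32 in SoLo and -1.68 ± 0.52 in SPIA). PTBP1, a splicing regulator that acts on PKM transcripts, fell in SPIA over that interval (-0.82 ± 0.26), where the median of all tested genes was -0.43. In SoLo PTBP1 averaged 743 ± 234 CPM in 8-cell embryos and 723 ± 94.3 CPM in expanded blastocysts. The AMP-activated kinase subunits went apart in SoLo, where PRKAA2 rose (1.18 ± 0.41) and PRKAA1 fell (-1.07 ± 0.27) over that interval, while in SPIA PRKAA2 fell in morulas against 8-cell embryos (-2.60 ± 0.90) and rose by 2.97 ± 0.87 in expanded blastocysts against morulas. MLXIPL, a glucose-responsive factor, was listed at 0 in all SoLo morulas and expanded blastocysts, against 4.97 ± 4.38 CPM in 8-cell embryos, and was called lower in both. Its 8-cell SoLo values ran from 0.0948 to 9.39 CPM. In SPIA it was at 0 in all 9 8-cell libraries, which include those of the same 4 embryos.

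Each isoform gene had its own closest pattern among 14241 named genes, by Pearson r of log2(CPM + 1) over the 36 SPIA libraries. These libraries share stage, depth and scaling, so the values are descriptions. PFKL was closest to NSMAF with r = 0.931 in SPIA and 0.908 over 13 SoLo libraries. PFKFB4 was closest to TSPAN15 (0.881 in SPIA, 0.884 in SoLo), LDHB to BPNT2 (0.904 and 0.796) and HK1 to TBRG4 (0.839 and 0.765). HK2 with MED13L and LDHA with HSPA9 had high values in SPIA, 0.909 and 0.884, but 0.366 and 0.453 in SoLo. PFKM with YIPF6 and PFKP with NPTN reached only 0.670 and 0.573 in SPIA and were near 0 in SoLo, at 0.0504 and -0.0814.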

How the data were processed

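RNA of single embryos was sequenced after SPIA or SoLo library preparation, per the labels' protocols. The authors deposited 1 table of integer counts of reads per gene identifier, without normalisation. HISAT2 and DESeq2 were used, per the submitters' processing notes. Counting tool, genome build, annotation release and strandedness were not given in the sources used here, and overlapping or antisense genes and near-identical copies may share counts. Names came from identifier lists given with the data (15078 of 26309 identifiers). Of 52 columns, 49 matched a sample by title or, for 2 of code 111215, by group, and 3 columns were not used. No coordinates or sequences are given.

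The genes, the other lists and several alternatives were chosen with earlier results of these data known. All 10 genes, the called genes of the pathway list that are reported here and those of the regulator list named above, and the closest-pattern gene of each isoform gene make up the naming rule. The pathway list, apart from members that are not reported here, was HK3, HKDC1, ADPGK, GPI, PFKFB1, PFKFB2, TIGAR, FBP1, FBP2, ALDOA, ALDOC, TPI1, GAPDH, GAPDHS, PGK1, PGK2, PGAM1, PGAM2, BPGM, ENO1, ENO2, ENO3, PKLR, LDHC, LDHD, LDHAL6A and LDHAL6B.

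Tests of counts ran in R 4.3.3, and edgeR 4.0.16 fitted the groups of a kit together (robust quasi-likelihood; TMM; filterByExpr; Benjamini-Hochberg). DESeq2 1.42.0 and limma 3.58.1 (voom, title-code correlation -0.0345) served as alternatives, with other scalings, filters and left-out libraries. Standard errors derive from the fold change and F. Ratios are log2((count + 0.5)/(count + 0.5)) per library, compared by two-sided permutation tests in Python 3.11.15 with numpy 2.4.6 and pandas 2.3.3, exact for groups under 10 libraries, with 100000 resamples for larger ones, and adjusted over 42 tests. Figures used matplotlib 3.10.9. The fit was tested on simulated data, where calls of sparse, very variable genes were less secure and many changes in such genes were missed.

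The kit comparison used 13 libraries per kit, where the design had assumed 14. Titles that matched between kits were read as the same embryo, which makes those libraries paired. Over 11 pairs and 6551 genes, deviations from group means correlated with a median of 0.22 (0.0395 to 0.583), and in 10 of 11 cases the highest correlation was with the matching title. The labels present libraries as separate embryos, but embryos of 1 code may share parents or a day, so p-values measure the spread between these embryos only. Reads carry no molecular identifiers, so limits from counts cover counting error only. No group held libraries that agreed within sampling noise.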

Additional observations from a re-analysis of the deposited data

Results flagged for a closer look

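In each group of 4 to 10 libraries, the library farthest out was compared with the rest by the ratio of its gap to the range of the group on the log2(CPM + 1) scale, at the 95% limit. Over 26 groups of a gene tested this way, chance marks about 1 in 20 where few libraries are at 0, and 7 values were marked. The 8-cell SPIA library 020816_09 gave 3 of them, with HK2 at 1.64 CPM where the next lowest library had 269, LDHA at 1.55 CPM where the next had 167, and LDHB at 0.365 CPM where the next had 20.0. PFKP in the same library was 43.7 CPM, above 6 of the 8 other 8-cell libraries, so the low values were not shared by every isoform gene. Without it and 2 other libraries that stood apart, HK2 and LDHB rose in SPIA morulas by 1.47 ± 0.23 and 1.80 ± 0.34, and the number of isoform genes called did not change.

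PFKFB4 at 1.90 CPM in 8-cell SPIA library 011516_03 stood above the next at 0.414 CPM. PFKFB3 was marked in 8-cell SPIA library 112815_01 at 0.832 CPM and in 8-cell SoLo library 020816_08 at 0.340 CPM, in groups whose other libraries were all at 0. The chance rate above does not apply to these PFKFB3 groups. Nor does it apply to the 8-cell SPIA group of PFKFB4, with 7 of 9 libraries at 0. HK1 in SoLo expanded blastocyst 111715_02 was low at 127 CPM, where the next lowest had 183 CPM, and the same embryo was at 45.9 CPM in SPIA, inside the range of the other expanded blastocysts.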

How the results depend on the processing

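Calls rest on few embryos per title code, on the kit and on scaling. With the compared groups fitted alone, morula against 8-cell in SPIA called 1 isoform gene in place of 3 (446 genes in place of 3024 overall), among embryos with no SoLo library 1 (290 overall) and within title code 020816 0 (4 overall). Fewer embryos entered the last 2 of these, and other causes were not tested. Expanded blastocyst against 8-cell in SPIA called 1 in place of 4 among embryos with no SoLo library (2231 overall in place of 5708), where HK2 (1.23 against 1.43 with all embryos, adjusted p = 0.180), PFKFB4 (3.76 against 5.22, 0.180) and LDHB (1.98 against 2.18, 0.0551) missed the threshold with fewer embryos. Expanded blastocyst against morula in SPIA called 0 in place of 1 among embryos with no SoLo library (604 overall in place of 2283), 0 without the pair of morulas with almost no PFKL (1145 overall) and 2 with voom. In SoLo that contrast called 2 with DESeq2 (679 overall in place of 162), 1 with groups fitted alone and 1 with no filter on low counts in place of 0, and 0 to 2 when 1 library at a time was left out. PFKFB4 in SPIA and the overall counts include sparse genes, whose calls are less secure. The share of called genes that were higher moved from 58.5 to 44.9% with DESeq2 in SoLo morulas, from 32.1 to 77.8% and from 35.3 to 66.1% with voom in SPIA expanded blastocysts against morulas and against 8-cell embryos, from 9.88 to 42.6% with DESeq2 in SoLo expanded blastocysts against morulas, and from 50.9 to 90.5% between kits with library totals. With embryo as a replicate block, the paired kit comparison called 2900 genes in place of 3459 and 4 isoform genes as before, and the interaction called 3 genes and 0 isoform genes. Of 42 ratio tests, 16 passed with a pseudocount of 5 as well (with smaller SPIA differences for PFKL), 12 without the 3 8-cell embryos with cumulus transcripts, and 14 to 17 when 1 library at a time was left out.

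Signs turned only for values that were not called. Without the 3 8-cell embryos with cumulus transcripts, HK1/HK2 became 0.024 for expanded blastocyst against 8-cell in SPIA and -0.036 for morula against 8-cell in SoLo, LDHA -0.019 and PFKM 0.37 for expanded blastocyst against 8-cell in SPIA, PFKFB4 -0.26 and PFKP 0.74 for morula against 8-cell in SoLo, and PFKP 1.13 for expanded blastocyst against 8-cell in SoLo. Among embryos with no SoLo library, LDHA (-0.25), PFKM (0.41) and PFKP (0.17) turned for expanded blastocyst against 8-cell and HK1 (-0.11) for expanded blastocyst against morula. In libraries under 12 M counts, LDHA turned for expanded blastocyst against 8-cell (-0.43) and morula against 8-cell (-0.057), and PFKP for expanded blastocyst against morula (-0.049). HK2 for expanded blastocyst against morula in SPIA was 0.038 with DESeq2, 0.038 with its size factors and 0.41 with voom, and voom turned PFKM to 0.80 against 8-cell and 0.25 against morula. Without the 3 libraries that stood apart, LDHA (-0.038, against 8-cell) and PFKP (-0.25, against morula) turned in SPIA expanded blastocysts. Within title code 112515, delayed against expanded blastocyst gave 0.29 for HK1, -0.32 for LDHA and 0.63 for PFKFB4. With library totals the kit difference was 0.46 for HK1, 0.47 for PFKM and 0.32 for PFKP. The cause was not tested for these.

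Leaving out 1 library at a time gave ranges across 0 for expanded blastocyst against morula in SoLo (HK1 -0.11 to 0.43, HK1/HK2 -0.26 to 0.26, PFKM -0.997 to 0.33, PFKM/PFKP -1.78 to 0.36, PFKP -0.26 to 1.47) and in SPIA (HK1/HK2 -0.16 to 0.42, HK2 -0.21 to 0.053, PFKP -0.26 to 0.85). They also crossed 0 for morula against 8-cell in SoLo (HK1/HK2 -0.021 to 0.49, PFKFB3/PFKFB4 -0.87 to 0.13, PFKFB4 -0.37 to 0.56, PFKM -0.17 to 1.80), for expanded blastocyst against 8-cell (LDHA in SPIA -0.10 to 0.39, PFKM in SoLo -0.21 to 1.17) and for delayed against expanded blastocyst (LDHB -1.35 to 0.29, PFKL -0.43 to 0.68, PFKM -0.24 to 1.60, PFKL/PFKM -2.38 to 0.52, PFKM/PFKP -2.39 to 0.40). Leaving out the abundant unnamed identifiers, the libraries that stood apart or the morulas with almost no PFKL, and library totals between kits, were alternatives chosen after seeing the data. The planned promoter search was not run. In SoLo, 3 against 4 embryos cannot give a permutation p under 0.02857, and PFKFB3 and SPIA 8-cell PFKL lie near the limit of detection.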
